A study of Mus musculus with 8 samples.

Results

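Nuclear hormone receptors are transcription factors that bind DNA through a zinc finger domain and, in many cases, change their activity when a small fat-soluble ligand binds. The 44 mouse genes described here encode receptors for retinoids, thyroid hormone, vitamin D, steroids, fatty acids and sterols, together with orphan receptors that have no agreed natural ligand. They are the members of the family listed by name, and the family was picked for description with earlier results of these data known. Of 15736 differential ATAC-seq peaks, 90 belonged to these genes, 79 of the 12991 gained and 11 of the 2745 lost peaks.

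The data came from hearts of mouse embryos at embryonic day E10.5. ATAC-seq, in which the transposase Tn5 cuts and tags accessible DNA, was run in quadruplicate for WT and for *Chd4-CMko* hearts (n = 4 each), every sample pooling several hearts. *Chd4* encodes the ATPase of the NuRD chromatin remodelling complex. In *Chd4-CMko* embryos floxed *Chd4* was deleted by Cre under the cardiomyocyte promoter of *Tnnt2*, so that endocardial, epicardial and other cells of the dissociated heart kept the gene, and the comparison asks where accessibility depends on CHD4. Gained peaks had the higher signal in *Chd4-CMko* hearts and lost peaks the higher signal in WT hearts. In whole hearts a change in the number of cells of a type and a change in accessibility per cell cannot be told apart. The files held the position and a score of each peak, with no value per sample, so neither replicate error nor a test between genotypes was possible, the files do not show the depth of a sample, and cell type markers could not be checked. Intervals below are Wilson 95% intervals, which cover counting error only and treat neighbouring genes and peaks as independent.

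Most of these receptors bind DNA as dimers, often with a retinoid X receptor, on copies of the half-site AGGTCA, while the receptors for glucocorticoids, mineralocorticoids and progesterone use the half-site AGAACA. Without ligand many of them hold corepressors such as NCOR1 on chromatin, and with ligand they recruit coactivators. In the heart the PPAR and estrogen-related receptors are known for their control of fatty acid oxidation and mitochondrial genes, retinoic acid receptors for the patterning of atria and inflow tract, thyroid hormone receptors for maturation of the muscle, and COUP-TFII (*Nr2f2*) for atrial identity.

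The sequences that the results turn on are given first, on mm10 and in the direction of transcription of the receptor gene. The gained peak with the highest score of any receptor lay in *Rarg* at chr15:102247014-102247164, on the minus strand, 514 bp from a start site inside the gene, and its capitals mark the TEAD string ACATTCC, read on the opposite strand. Within 1 kb of a start site, gained peaks with the receptor half-site AGGTCA were found at *Rxrg* (chr1:167618138-167618288, plus strand) and *Nr2c1* (chr10:94148214-94148364, plus strand), and there the capitals mark the half-site, which reads TGACCT where it is on the other strand. The gained peak at the start of *Ppara* (chr15:85734784-85734934, plus strand) is shown as an example of a CpG-rich promoter, with its KLF strings in capitals.
*Rarg* gained: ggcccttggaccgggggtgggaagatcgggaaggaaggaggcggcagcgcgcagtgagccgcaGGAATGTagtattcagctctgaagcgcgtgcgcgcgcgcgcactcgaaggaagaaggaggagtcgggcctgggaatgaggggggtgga
*Rxrg* gained: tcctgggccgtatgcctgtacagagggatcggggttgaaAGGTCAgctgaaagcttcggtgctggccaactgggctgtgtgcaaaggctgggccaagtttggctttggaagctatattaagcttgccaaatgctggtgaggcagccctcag
*Nr2c1* gained: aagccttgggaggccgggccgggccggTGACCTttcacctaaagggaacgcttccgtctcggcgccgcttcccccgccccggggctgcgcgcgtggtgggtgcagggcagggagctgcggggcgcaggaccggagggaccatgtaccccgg
*Ppara* gained: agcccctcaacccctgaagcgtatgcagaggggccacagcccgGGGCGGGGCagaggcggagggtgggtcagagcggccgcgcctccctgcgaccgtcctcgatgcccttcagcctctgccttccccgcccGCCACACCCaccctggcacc

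The next set shows lost peaks of receptors that also had gained peaks, with the gained peaks of *Esrrg* nearest to its lost ones. They lay at *Esr2* (chr12:76177955-76178105 at the promoter and chr12:76187955-76188105 upstream, minus strand), *Rora* (chr9:69099726-69099876 and chr9:69125451-69125601, plus strand), *Esrrg* (chr1:187684603-187684753, chr1:187907946-187908096 and chr1:188056085-188056235, plus strand) and *Nr2f2* (chr7:69791241-69791391, minus strand). The gained *Esrrg* peaks lay at chr1:187689873-187690023 and chr1:187930589-187930739. Capitals mark AGGTCA in *Rora* and in the gained *Esrrg* peaks, AGAACA in the lost *Esrrg* peak named second and the TEAD string (ACATTCC or its reverse) in the one named last. The first *Rora* and the *Nr2f2* peak were 80.1% and 100% annotated repeat.
*Esr2* lost, promoter: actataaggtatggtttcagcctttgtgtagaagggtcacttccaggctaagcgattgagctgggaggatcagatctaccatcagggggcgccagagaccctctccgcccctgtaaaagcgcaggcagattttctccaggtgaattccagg
*Esr2* lost, upstream: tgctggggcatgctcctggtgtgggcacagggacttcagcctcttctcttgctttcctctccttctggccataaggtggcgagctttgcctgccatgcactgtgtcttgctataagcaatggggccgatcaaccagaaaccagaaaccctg
*Rora* lost, first: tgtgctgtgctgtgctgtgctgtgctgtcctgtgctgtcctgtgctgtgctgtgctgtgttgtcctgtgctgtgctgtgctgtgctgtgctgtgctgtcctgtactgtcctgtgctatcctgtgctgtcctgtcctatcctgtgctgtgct
*Rora* lost, second: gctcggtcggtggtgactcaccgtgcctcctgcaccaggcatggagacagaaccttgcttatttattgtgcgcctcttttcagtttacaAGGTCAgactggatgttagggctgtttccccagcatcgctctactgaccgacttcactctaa
*Esrrg* lost, first: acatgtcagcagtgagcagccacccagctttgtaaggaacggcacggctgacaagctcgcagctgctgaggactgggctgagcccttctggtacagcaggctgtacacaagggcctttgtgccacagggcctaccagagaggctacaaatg
*Esrrg* lost, second: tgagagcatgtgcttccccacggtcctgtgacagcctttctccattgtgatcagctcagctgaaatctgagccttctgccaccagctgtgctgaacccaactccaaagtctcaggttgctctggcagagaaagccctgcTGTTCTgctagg
*Esrrg* lost, last: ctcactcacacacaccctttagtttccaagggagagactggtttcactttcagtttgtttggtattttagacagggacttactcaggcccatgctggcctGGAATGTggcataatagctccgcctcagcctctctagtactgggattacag
*Nr2f2* lost: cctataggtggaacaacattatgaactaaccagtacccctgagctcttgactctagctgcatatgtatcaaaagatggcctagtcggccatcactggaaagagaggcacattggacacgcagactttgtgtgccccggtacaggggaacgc
*Esrrg* gained, near the first lost peak: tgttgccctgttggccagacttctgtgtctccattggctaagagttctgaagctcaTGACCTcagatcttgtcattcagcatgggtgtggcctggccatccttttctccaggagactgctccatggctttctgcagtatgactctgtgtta
*Esrrg* gained, near the second lost peak: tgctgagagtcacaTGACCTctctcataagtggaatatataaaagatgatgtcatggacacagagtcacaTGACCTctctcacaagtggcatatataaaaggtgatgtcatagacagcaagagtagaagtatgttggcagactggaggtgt

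Gained accessibility was spread over most of the family. A peak was assigned to a gene if the nearest protein-coding start site (TSS) was a start site of that gene, or if the peak lay within 10 kb of the gene body. By this rule 32 of the 44 receptor genes had a gained peak (72.7%, 58.2 to 83.7%), where 37.4% of 21951 protein-coding genes had one. Lost peaks belonged to 8 receptor genes (18.2%, 9.51 to 32.0%), against 10.8% of protein-coding genes. Both kinds were found at 5 receptors (11.4%, 4.95 to 24.0%) and at 6.36% of protein-coding genes, 27 receptors had gained peaks alone, 3 had lost peaks alone, and 9 had neither. Of the peaks that belonged to receptors 87.8% were gained, and of all listed peaks 82.6%.

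**Figure D1:**
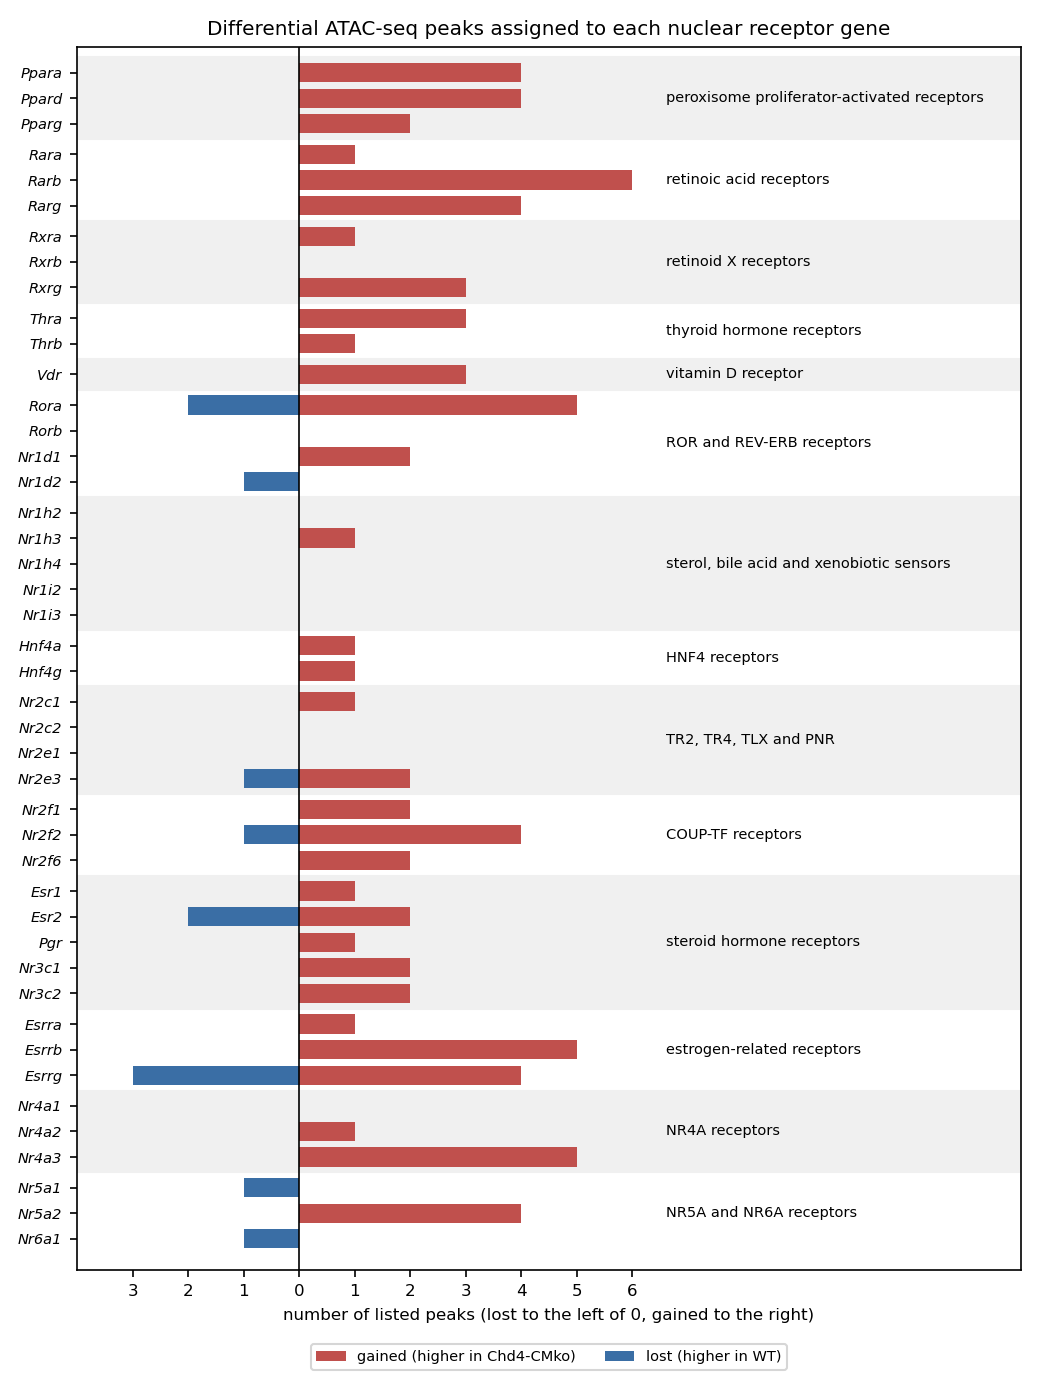
Number of listed peaks (x axis) assigned to each of the 44 receptor genes (y axis, grouped by type of receptor), with gained peaks to the right of 0 and lost peaks to the left. *Rarb* has the most gained peaks, 6, *Esrrg* has the most lost peaks, 3, and 9 genes have no peak.

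The gained peaks were also numerous per gene. At least 4 gained peaks were assigned to 10 receptors (22.7%), which 4.12% of protein-coding genes reached. These shares are not matched for the length of the genes. *Rarb* had 6, *Rora*, *Esrrb* and *Nr4a3* had 5 each, and *Ppara*, *Ppard*, *Rarg*, *Esrrg*, *Nr2f2* and *Nr5a2* had 4 each. At the other end, 11 receptors had a single gained peak and 12 had none.

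Receptor genes are long, and long genes have more room for a peak. Their median span was 52.7 kb, and that of protein-coding genes 17.4 kb. Among genes of 10 to 30 kb, 8 of 11 receptors (72.7%, 43.4 to 90.3%) and 34.7% of protein-coding genes had a gained peak, and among genes of 30 to 100 kb, 11 of 15 receptors (73.3%, 48.0 to 89.1%) and 46.1% of protein-coding genes. Above 100 kb the shares were 84.6% (57.8 to 95.7%) and 68.5%, so the interval of the 13 longest receptors held the value of other long genes. Only 5 receptors spanned up to 10 kb, and 2 of them, *Nr1d1* and *Nr2f6*, had a gained peak, against 23.9% of protein-coding genes of that length. Of the receptors with at least 4 gained peaks, *Rarb*, *Rora*, *Esrrb*, *Esrrg* and *Nr5a2* span over 100 kb. Gained peaks per gene above 100 kb were 2.54 for receptors and 1.98 for protein-coding genes. From 30 to 100 kb they were 1.73 and 0.866, from 10 to 30 kb 1.64 and 0.553, and up to 10 kb 0.8 and 0.363. For lost peaks the order differed between span classes. Receptors of 10 to 30 kb had them in 3 of 11 genes (27.3%, 9.75 to 56.6%), against 6.21% of protein-coding genes, and those of 30 to 100 kb in 2 of 15 (13.3%, 3.74 to 37.9%), against 14.0%. Those over 100 kb had them in 3 of 13 (23.1%, 8.18 to 50.3%), against 36.5%, and the 5 shortest had none. Counted by area, the stretches of genome that the rule gives to the receptors came to 18.3 Mb and held 4.33 gained and 0.603 lost peaks per Mb, where whole chromosomes held 4.77 and 1.01. The order of the gained rates rests on *Hnf4g*, which stands in a stretch of 4.43 Mb with 1 gained peak. Without it the receptors held 5.64 gained peaks per Mb, above the whole chromosomes, while the lost rate, 0.795 per Mb, stayed below them. Leaving out any other single receptor kept the gained rate below that of whole chromosomes.

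Other families of developmental transcription factors gave shares in the same range. A gained peak was assigned to 27 of 44 Fox genes (61.4%, 46.6 to 74.3%), 22 of 39 Hox genes (56.4%, 41.0 to 70.7%) and 16 of 19 Sox genes (84.2%, 62.4 to 94.5%). The intervals of the receptors and of each of these families overlapped. Fox, Hox and Sox genes are much shorter, with median spans of 5.72, 3.49 and 4.83 kb.

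**Figure D2:**
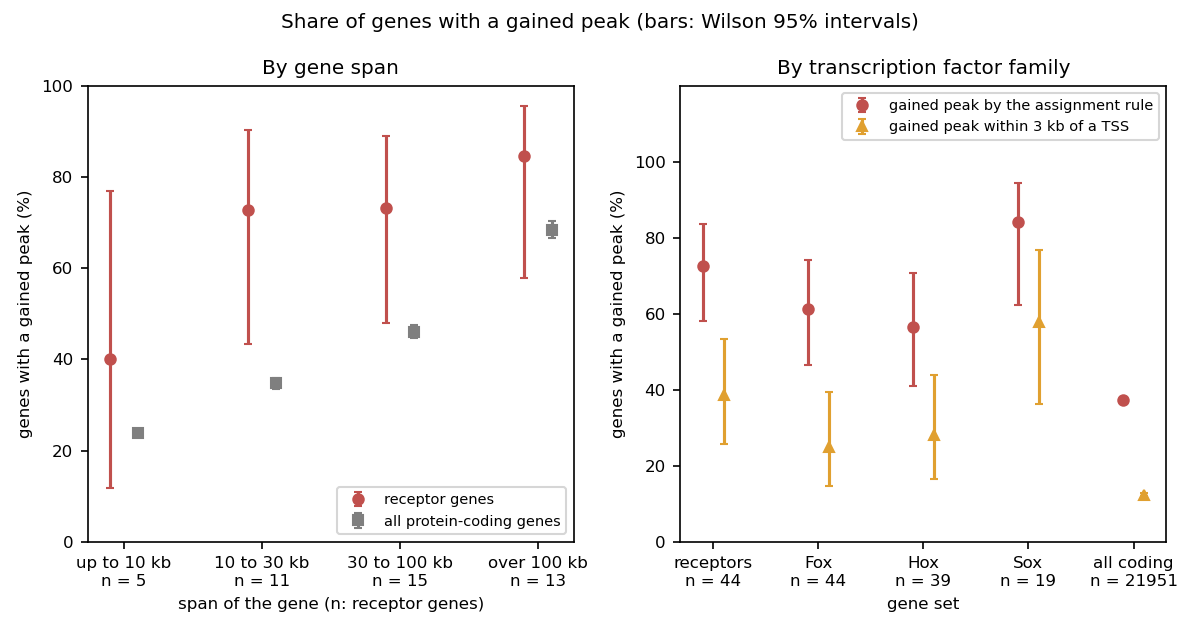
Share of genes with a gained peak (y axis, %) by gene span for the receptors and all protein-coding genes (left), and by transcription factor family for any gained peak and for one within 3 kb of a start site (right), with Wilson 95% intervals as bars. Receptors lie above all protein-coding genes in each span class, and their intervals clear the values of all genes between 10 and 100 kb only.

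Gained peaks at promoters belonged to 17 receptors (38.6%, 25.7 to 53.4%), against 12.4% of protein-coding genes, where a promoter is the sequence within 3 kb of any annotated start site of the gene. Start sites of transcripts not annotated as protein-coding count too. The promoter peaks of *Ppara*, *Rara*, *Nr1d1*, *Nr2f6*, *Nr4a2* and *Nr4a3* were nearest to such a start site. The single lost promoter peak was that of *Esr2*, 1 of 44 receptors beside 1.24% of protein-coding genes. Fox and Hox genes had gained promoter peaks in 25.0% (14.6 to 39.4%) and 28.2% (16.5 to 43.8%), and Sox genes in 57.9% (36.3 to 76.9%). The receptors have more annotated start sites than most genes, with a median of 6 against 3. When only the 5′-most start site was counted, 9 receptors (20.5%) remained, *Ppara*, *Pparg*, *Rarg*, *Esrrb*, *Nr2c1*, *Nr2f6*, *Nr3c2*, *Nr5a2* and *Pgr*, and the share of protein-coding genes was 8.19%. Many promoter peaks of receptors therefore lay at start sites inside the gene.

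The highest scores were near start sites. The score is the authors' own and its scale is not stated, so scores are compared here within a list only. Of the 79 gained peaks 23 were at a promoter of the receptor, with a median score of 164.5 (range 46 to 486.5), whereas the 23 in introns had a median of 58 and the 27 upstream a median of 49. Another 2 peaks were over exons and 4 lay downstream. By distance, 16 peaks (20.3%) were within 1 kb of a receptor start site and 19 (24.1%) were over 100 kb away, where the median score was 36. Measured to the nearest start site of any protein-coding gene, 21.5% of gained receptor peaks (13.9 to 31.8%) and 16.8% of all gained peaks were within 1 kb. Over 100 kb away were also 21.5% of gained receptor peaks and 14.1% of all, and the median distance was 22.3 kb and 15.4 kb. Within 3 kb of a protein-coding start site the median was 157 for 24 receptor peaks and 122.5 for all 2995 such gained peaks, and farther away it was 50 and 54.5. The receptor peaks farther than 3 kb had scores near those of other gained peaks. Base composition was also alike, with a mean GC content of 57.9% ± 9.16 (SD over 79 peaks) for receptors and 56.7% ± 8.55 (SD over 12991 peaks) for all gained peaks.

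**Figure D3:**
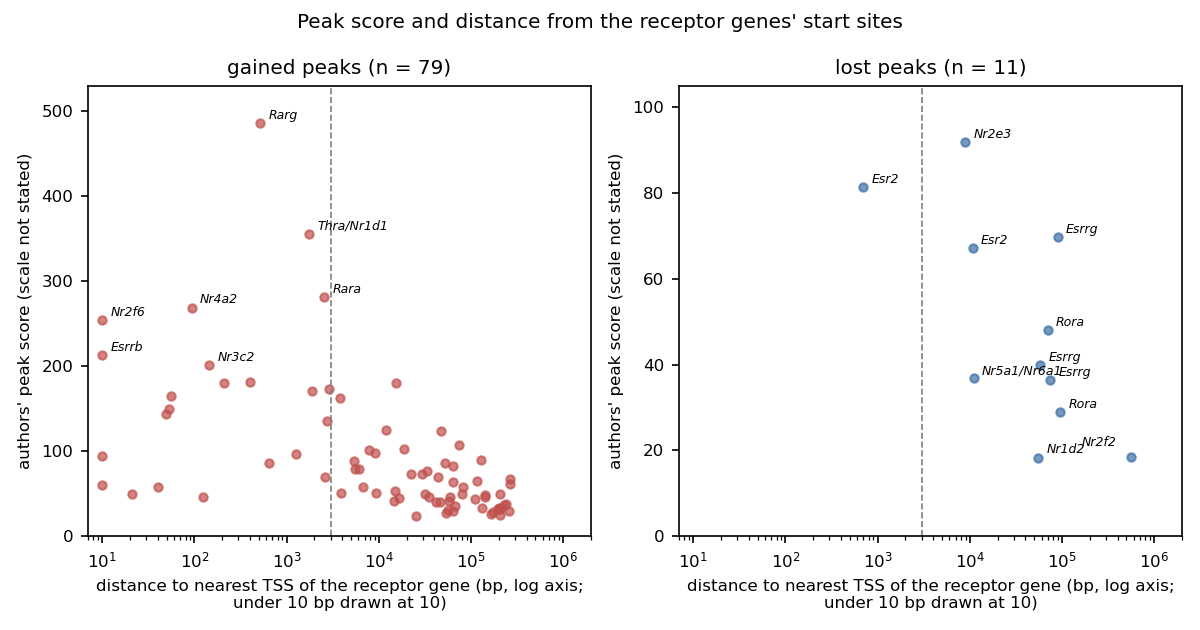
Authors' peak score (y axis, separate scales) against distance to the nearest start site of the receptor gene (x axis, log scale, distances under 10 bp drawn at 10) for the 79 gained and 11 lost peaks, with a dashed line at 3 kb. Each named gained peak, with a score of at least 200, lies within 3 kb of a start site, while 10 of the 11 lost peaks lie farther away.

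Among receptors for fatty acids and retinoids, every PPAR and retinoic acid receptor gene had gained peaks, beside 37.4% of protein-coding genes. Of the 3 retinoid X receptor genes, 2 had gained peaks. None of these 9 genes had a lost peak, beside 10.8% of protein-coding genes, and 9 genes are too few to set that absence apart. *Ppara*, which encodes the receptor that drives fatty acid oxidation genes, had a gained peak 49 bp upstream of its start with a score of 143.5, a GC content of 73.5% and 12 CpGs. It had 3 more at 47.8, 63.8 and 64.2 kb upstream, scored 123.5, 82.5 and 63.5. The outermost pair had the CpG-island-like composition of a promoter, at 76.8 and 80.1% GC with 19 and 22 CpGs, but the nearest annotated start site of any gene was that of the noncoding RNA *Lncppara*, 17467 and 17008 bp away. *Ppard*, the broadly expressed PPAR, had 4 intronic gained peaks scored between 79 and 125, at 5.41 to 12.1 kb from a start site. *Pparg*, the receptor of fat cell differentiation, had a gained peak scored 58, which lay 40 bp from a start site 1.34 kb into the gene, and an intronic one scored 39.5. Gained peaks were thus found at a start site of *Ppara* and *Pparg* and only in introns of *Ppard*.

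*Rarg*, one of 3 retinoic acid receptors, had the highest score of the family. The peak printed above, 10.4 kb inside the gene, scored 486.5, which placed it at percentile 99.8 of gained peaks. A pair of gained peaks stood 53 and 645 bp upstream of the first start site with scores of 150 and 86, and a peak scored 101 covered the 3′ untranslated exon. *Rarb*, a receptor gene that retinoic acid itself induces, had the most gained peaks and a different layout. Of its 6 peaks 5 were intronic and 1 was 200 kb upstream, the nearest was 29.7 kb from a start site of *Rarb*, and scores ran from 29.5 to 89. For 2 of the 6 the nearest protein-coding start site was that of *Top2b*, and by nearest start site alone *Rarb* had 4 gained peaks, fewer than the 5 of *Esrrb* and *Nr4a3*. *Rara* had 1 gained peak, scored 281, 14.5 kb into the gene and 2.56 kb from the nearest start site. The highest score was thus near a start site in *Rarg* and *Rara*, while no *Rarb* peak was, although the lowest *Rarg* score (86) was below the highest of *Rarb* (89).

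The retinoid X receptors, the common dimer partners, differed among themselves. *Rxra*, whose loss is known to thin the compact ventricular wall, had a single intronic gained peak scored 180. *Rxrg* had 3 with scores of 50, 51 and 53, one of them 21 bp from an internal start site with the half-site AGGTCA shown above. *Rxrb*, a compact gene, had neither kind of peak.

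*Thra*, the main thyroid hormone receptor of the heart, had 3 gained peaks scored 171, 173.5 and 355.5. The latter pair was shared with *Nr1d1*, which encodes the clock repressor REV-ERBα and runs in the opposite direction past the 3′ end of *Thra*. The peak of 355.5, the second highest of the family, lay over the 3′ untranslated exon of *Thra* and 1.73 kb from a start site of *Nr1d1*, so the rule cannot assign it to one of the pair. *Thrb* had 1 gained peak, intronic and scored 41. These receptor genes stand in paralogous neighbourhoods. *Thra*, *Nr1d1* and *Rara* lie within 234 kb of chromosome 11 and held 4 gained peaks scored from 171 to 355.5 with no lost peak, while *Rarb*, *Thrb* and *Nr1d2* lie within 1808 kb of chromosome 14 and held 7 gained peaks scored from 29.5 to 89 and 1 lost peak. The scores of the 2 neighbourhoods did not overlap, and neither did the distances of their gained peaks to the nearest protein-coding start site. These were 1734 to 2908 bp on chromosome 11 and 22309 to 200369 bp on chromosome 14. Over all gained peaks the median score was 122.5 within 3 kb of such a start site and 54.5 farther away. A difference between the neighbourhoods at like distance was not tested.

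The vitamin D receptor gene *Vdr* had 3 gained peaks, scored 136 at 2.74 kb from a start site and 45 and 102 at 16.6 and 18.8 kb upstream. Of the clock-linked receptors, *Rora*, which encodes an activator at the elements that REV-ERB proteins repress, had 5 gained and 2 lost peaks. Its gained peaks were scored 26.5 to 107 and the lost ones 28.9 and 48, all at least 53.7 kb from a start site of *Rora* itself. The gained peak scored 107 was, however, 10 bp from the start of the antisense RNA gene *Gm15511*, and the one scored 33.5 was 1.73 kb from that of the noncoding *4930502A04Rik*. *Nr1d2*, encoding REV-ERBβ, had only a lost peak, downstream and scored 18.3, of which 80.1% was repeat, and *Rorb* had none.

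The sterol, bile acid and xenobiotic sensors, receptors best known from liver and gut, had the fewest peaks. A gained peak was assigned to 1 of these 5 genes, beside 37.4% of protein-coding genes. No lost peak was assigned to them, beside 10.8%, and 5 genes are too few to set either count apart from these shares. *Nr1h2*, *Nr1h4*, *Nr1i2* and *Nr1i3*, which encode LXRβ, FXR, PXR and CAR, had neither kind. *Nr1h3*, encoding LXRα, had 1 gained peak downstream, scored 41.5, which was 561 bp from a start site of its neighbour *Madd*. *Esr2* and *Esrra* likewise owed their gained peaks to the 10 kb window alone, the nearest protein-coding start sites being those of *Syne2* and *Trmt112*. *Hnf4a* and *Hnf4g*, which encode regulators of liver and gut genes, had 1 gained peak each, scored 58 in an intron and 25 at 205 kb upstream.

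Among the orphan receptors of the NR2 group, *Nr2c1* (TR2) had a gained promoter peak scored 164.5, 55 bp from a start site, with 17 CpGs and the half-site shown above. *Nr2c2* (TR4) and *Nr2e1* (TLX, of neural stem cells) had neither kind. *Nr2e3*, known from photoreceptors, had gained peaks scored 70 and 51 and a lost peak scored 91.9, the highest lost score of the family. *Nr2f2*, which encodes COUP-TFII, had 4 gained peaks scored 32.5 to 69, the nearest 43.4 kb upstream. The one scored 69 was, however, 352 bp from the start of the noncoding *B130024G19Rik*, and the one scored 32.5 was 173 bp from that of the noncoding *Gm44812*. The single lost peak of *Nr2f2* was 564 kb away, scored 18.5 and consisted of repeat. *Nr2f1* had a CpG-rich gained peak scored 162 at 3.83 kb upstream, with 16 CpGs, and another scored 30 at 260 kb. *Nr2f6* had gained peaks scored 254 and 180, at 10 and 209 bp from annotated start sites.

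All 5 steroid hormone receptor genes had gained peaks, beside 37.4% of protein-coding genes. Of these 5, *Nr3c1*, *Nr3c2* and *Esr1* span over 100 kb, where 68.5% of protein-coding genes had one. *Nr3c2*, the mineralocorticoid receptor gene, had a CpG-rich peak scored 201 with 23 CpGs, 144 bp upstream of its start, and another scored 31.5 at 195 kb. *Pgr*, the progesterone receptor gene, had a peak scored 96 with 23 CpGs over its coding sequence. *Nr3c1*, the glucocorticoid receptor gene, had 2 upstream peaks scored 76.5 and 23.5, at 33.5 and 25.1 kb. *Esr1* had 1 intronic gained peak, scored 46.5, of which 93.4% was repeat. *Esr2*, encoding estrogen receptor β, was the only receptor with a lost promoter peak, scored 81.5 at 696 bp upstream, at percentile 93.1 of lost peaks. A second lost peak scored 67.2 was 10.7 kb upstream, and gained peaks scored 46.5 and 30.5 were in an intron and beyond the 3′ end. Lost peaks of *Esr2* thus stood before the gene and gained peaks at its far end, 45.0 kb from each other at the closest.

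The estrogen-related receptors had 10 gained and 3 lost peaks. *Esrrb*, known from pluripotent cells and placenta, had 5 gained peaks, among them one scored 213.5 over its first start site and one scored 60 over an internal start site. *Esrra*, a regulator of mitochondrial genes, had 1 intronic gained peak scored 79. *Esrrg*, which acts on the oxidative genes of the heart around birth, had 4 gained peaks scored 28 to 49.5 and 3 lost peaks scored 36.4, 39.9 and 69.8. All 3 lost and 3 of the gained *Esrrg* peaks were intronic, and a gained and a lost peak were only 5.12 kb apart. At *Nr2e3* the closest gained and lost peaks were 4.78 kb apart, at *Rora* 166 kb and at *Nr2f2* 423 kb.

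**Figure D4:**
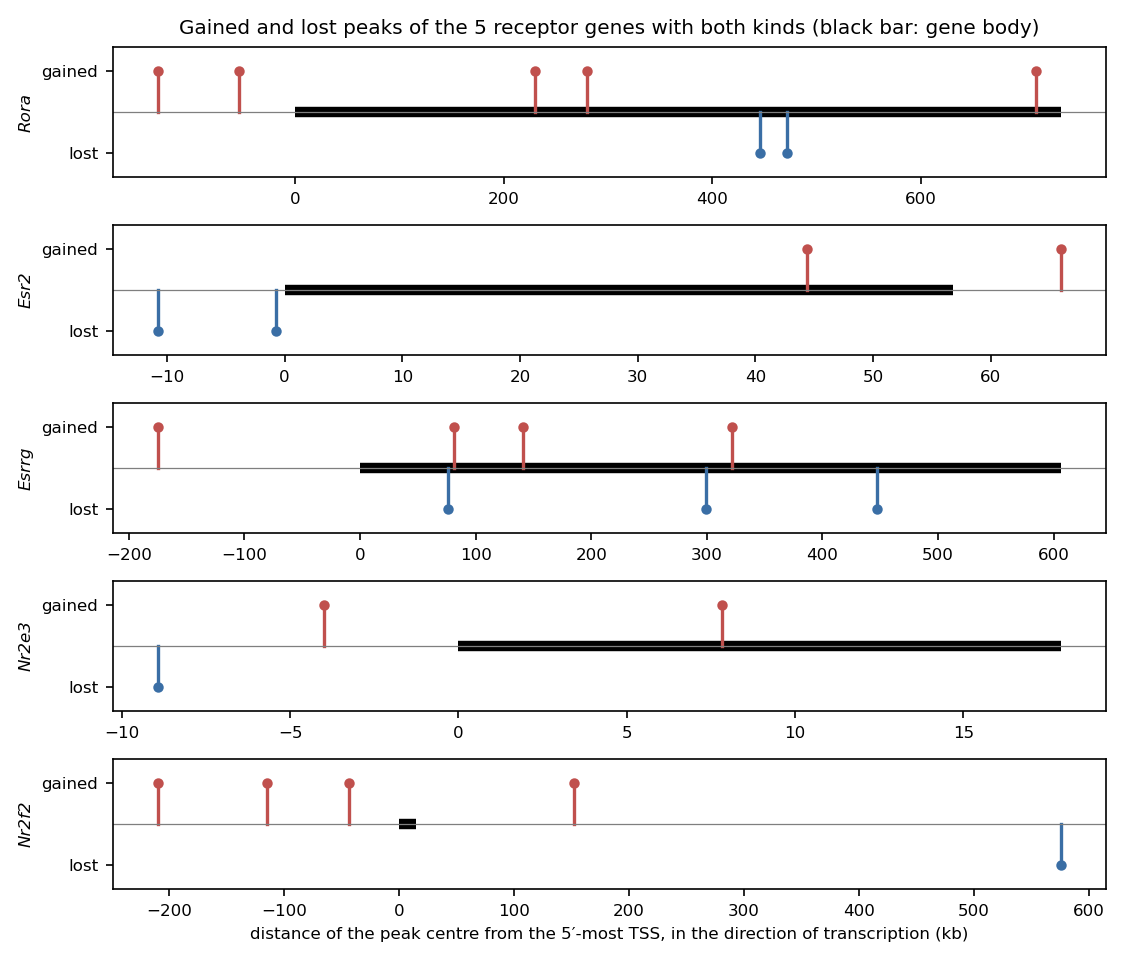
Positions of gained peaks (up) and lost peaks (down) of the 5 receptor genes with both kinds, as distance from the 5′-most start site in the direction of transcription (x axis, kb, one scale per gene), with the gene body as a black bar. Gained and lost peaks are interspersed along *Esrrg*, and at *Esr2* lost peaks are upstream and gained peaks are at the 3′ end.

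The NR4A receptors are immediate early orphan receptors that need no ligand. *Nr4a2* had 1 gained peak, scored 269, at 93 bp from an internal start site. *Nr4a3* had 1 near a start site, scored 181.5 at 400 bp, and 4 more between 166 and 237 kb upstream, scored 25.5 to 49. *Nr4a1* had neither kind. *Nr5a2*, encoding LRH-1, had 4 gained peaks scored 46 to 94, 2 of them within 1 kb of a start site. *Nr5a1*, the gonad and adrenal regulator SF-1, and *Nr6a1*, which encodes a repressor of pluripotency genes, are neighbours and shared 1 lost peak scored 36.8. That peak lay 11.0 kb upstream of *Nr5a1* and over the 3′ untranslated exon of *Nr6a1*, and neither gene had a gained peak.

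Receptor binding strings were counted next. Each string was searched on both strands without mismatch, and a peak was counted once. AGGTCA was in 10 of 79 gained receptor peaks (12.7%, 7.02 to 21.8%), of *Esrrg*, *Nr2c1*, *Nr2f2*, *Nr3c2*, *Rarb*, *Rora*, *Rxrg* and *Vdr*, and in 15.2% of all gained peaks. In lost peaks it was in 2 of 11, those of *Rora* and of the pair *Nr5a1* and *Nr6a1*, and in 8.96% of all lost peaks. AGGTCA as a direct repeat with a spacer of 0 to 5 bases was in no receptor peak, and each spacer was in only 3 to 6 of all 12991 gained peaks and in no lost peak. Both promoter matches, at *Rxrg* and *Nr2c1*, were part of the longer string AAAGGTCA (NBRE, the NR4A element), which contains AGGTCA. Within 3 kb of a protein-coding start site it was in 2 of 24 gained receptor peaks (8.33%, 2.32 to 25.8%) and in 1.07% of all gained peaks, an interval that does not reach the latter value but rests on 2 peaks. Over all distances it was in 2.53% (0.697 to 8.77%) and 1.17%. TCAAGGTCA (ERRE), which contains it too, was in no receptor peak and in 0.654% of all gained peaks. AGAACA was in 7.59% of gained receptor peaks and 8.51% of all gained peaks.

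Strings of other factors gave shares within the same range. The KLF consensus was in 15 gained receptor peaks (19.0%, 11.9 to 29.0%) and 14.4% of all gained peaks, and the NFY consensus in 6 (7.59%, 3.53 to 15.6%) and 12.6%. The string AGATAAG, bound by GATA factors, was in 6 (7.59%, 3.53 to 15.6%) and 5.45%. The TEAD string ACATTCC was in 5 (6.33%, 2.73 to 14.0%) and 3.76%. The MEF2 consensus was in 1, of *Esrrg*, and in 3.26% of all gained peaks, and the CTCF consensus in none and in 0.285%. Over all gained peaks the interval for the receptors held the value of all gained peaks for each string. Within 3 kb of a protein-coding start site AGATAAG was in 3 of 24 receptor peaks (12.5%, 4.34 to 31.0%), those of *Nr1h3*, *Nr5a2* and *Thra*. It was in 3.17% of all gained peaks, again an interval that rests on few peaks and does not reach the latter value. The start site near the *Nr1h3* peak is that of *Madd*. NFY and AGAACA were in 0 of the 24, beside 9.65% and 4.94%. Each string was counted near and far from start sites, and counts so many can give a few such intervals by chance. In RefSeq promoters of GRCm38, short windows around an annotated start, 40 receptors were matched, and AGGTCA was in 11 of their 61 promoters (18.03%) and in 16.3% of 32851 promoters. A gained peak overlapped such a promoter at 5 of the 40 receptors (12.5%, 5.46 to 26.1%), *Esrrb*, *Nr5a2*, *Pparg*, *Rarg* and *Rxrg*, and at 4.64% of 16522 protein-coding genes with a RefSeq promoter.

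**Figure D5:**
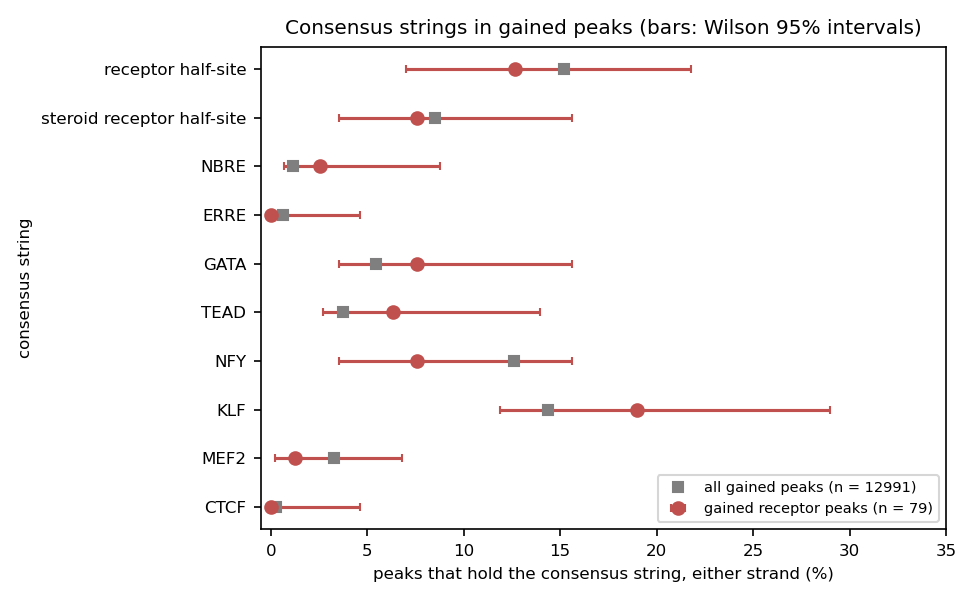
Share of peaks that hold each consensus string (x axis, %) for the 79 gained receptor peaks (circles, with Wilson 95% intervals) and all 12991 gained peaks (squares). Each interval holds the value of all gained peaks, for example 12.7% and 15.2% for the receptor half-site AGGTCA.

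Genes that work with these receptors were counted by the same rule, beside the 37.4% and 10.8% of all protein-coding genes. Of 16 coregulators 10 had a gained and 3 a lost peak. The PGC-1 coactivator genes *Ppargc1a* and *Ppargc1b* had 4 gained peaks each, and the corepressor genes *Nrip1* and *Tbl1xr1* 5 each. The lost peaks of coregulators were 2 at *Nrip1* and 1 each at *Tbl1xr1* and *Ppargc1b*, while *Ncor1*, *Hdac3*, *Gps2* and *Sin3a* had neither kind. Of 14 genes of retinoid supply and turnover, 8 had a gained and 2 a lost peak. *Stra6*, the receptor that takes up retinol, had 6 gained peaks, 3 of them at promoters, and *Cyp26b1*, which degrades retinoic acid, had 5. Both kinds were found at *Aldh1a2*, the main retinoic acid synthase of the embryo, with 2 gained and 2 lost peaks, and *Aldh1a1* had 2 lost peaks alone. Of 7 thyroid hormone supply genes, 2 had a gained and 3 a lost peak, and *Dio2*, whose product activates the hormone, had a lost promoter peak. Circadian clock partners had gained peaks in 8 of 15 genes, with *Npas2* at 5, and lost peaks in 2. Fatty acid oxidation targets of the PPAR and estrogen-related receptors had gained peaks in 5 of 12 genes, with 1 peak each at *Cpt1a*, *Pdk4*, *Fabp3*, *Cd36* and *Ucp3*, and none of the 12 genes had one at a promoter (0 to 24.2%), where 12.4% of protein-coding genes did.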

How the data were processed

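The deposited files were 2 BED lists, one of peaks enriched in *Chd4-CMko* hearts (gained) and one of peaks enriched in WT hearts (lost). Per the labels, reads were mapped by the authors to mm10 (BWA), peak calling used HOMER 4.10.3 and ChIPseeker 1.20.0 supplied the annotation. The score of each peak was deposited by the authors and its scale is not stated. How samples were combined, duplicates treated and reads shifted for Tn5 is not given in the sources used here, and each can change which peaks are listed.

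Peaks, 131 to 151 bp wide, were placed on GENCODE release M21, and sequences were read from GRCm38 with Python (version 3.11.15). Gene sets were described by counts and Wilson 95% intervals, with no test. The placing of peaks and the string search were tested on simulated intervals. Described in full were receptors with a lost peak, those with the most gained peaks or highest gained scores, and those with a gained peak within 1 kb of a start site. Printed sequences were gained peaks within 1 kb of a start site with AGGTCA, the highest-scoring peak of each list outside annotated UTRs and the lost peaks of receptors with both kinds, those over UTRs left out. The *Ppara* peak and the gained *Esrrg* peaks were chosen after their values were seen. The receptors, gene lists and rules were chosen with earlier results of these data known. Single genes of the partner lists that are not named are not reported here.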

Additional observations from a re-analysis of the deposited data

How the results depend on the processing

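The lists give no value per sample, so neither the spread between hearts nor the effect of leaving out a sample could be had, and the files hold no read depths from which to judge an absent peak. No paired analysis was possible because the lists hold no columns for single samples. The number of receptors with a gained peak ranged from 23 to 37 over the alternatives not limited to promoters, and its share stayed above the share of protein-coding genes under each of these. Each alternative changes which peaks, windows, strings or genes are counted. Counting peaks within 10 kb of the gene body alone left 5 receptors with a lost peak. Counting peaks within 3 kb of a start site alone left 17 receptors with 23 gained peaks and 1 receptor with 1 lost peak, so 95.8% of these peaks were gained. At or above each list's median score 40 gained and 7 lost peaks remained, 47.5% of these gained peaks being at promoters, and with one score limit for both lists, which assumes that their scales are the same, there were 7 lost peaks. With a promoter of 1 kb, 11 receptors had a gained promoter peak, and with 10 kb 40.5% of gained peaks were at promoters. Counting only the 5′-most start site, an alternative added after seeing the data, gave 9 receptors and 12.7%. Leaving out *Hnf4g*, also added after seeing the data, raised the gained peaks per Mb of receptor territory to 5.64, above the 4.77 of whole chromosomes. Allowing G or A as the first base of the half-site raised its share to 26.6% of gained receptor peaks, beside 23.9% of all gained peaks.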
